A study of Mus with 8 samples.

Results

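The CXC chemokines Cxcl1, Cxcl2, Cxcl3, Cxcl5, Ppbp, Pf4, Cxcl10 and Cxcl16 and the receptors Cxcr2 and Cxcr4 were followed by RNA sequencing in mouse bone marrow monocytes cultured in stiff hydrogels. The members were taken by 10 fixed Ensembl gene IDs out of 17640 in the count table, and all 10 passed the low-count filter that left 14785 IDs. The study asked how an elastic as opposed to a viscous matrix alters these cells, and whether the Jak2 V617F mutation of myeloproliferative neoplasm changes the outcome. There were 4 groups of 2 libraries, all from C57BL/6 cells at day 3. Control cells carried Vav-iCre alone, and Jak2 V617F cells carried Vav-iCre together with an endogenous Jak2 V617F knock-in allele; each genotype was grown in viscous gel (VLVG in the titles) and in elastic gel (NbTz in the titles). Vav-iCre acts across blood cell lineages, so the mutation is not restricted to monocytes in these mice. The medium of all 4 groups held PGE2 (100 ng/mL), IL4 (200 ng/mL) and GM-CSF (100 ng/mL), so no group shows the cells without them. The labels give no age for the mice and do not say whether animals were pooled.

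CXC chemokines are small secreted proteins named for the spacing of their first cysteines, and they act on G protein-coupled receptors of leukocytes. Cxcl1, Cxcl2, Cxcl3 and Cxcl5 bind Cxcr2 and draw neutrophils. Activated monocytes and macrophages make them in response to inflammatory signals. Ppbp, whose processed form also binds Cxcr2, and Pf4 are stored in platelet granules and made by megakaryocytes, and Pf4 is also transcribed by some macrophages. Cxcl10 is induced by interferons and binds Cxcr3. Cxcl16 is a membrane-anchored chemokine and scavenger receptor that binds Cxcr6. Cxcr4 is the receptor of Cxcl12 and keeps blood cells in the marrow, whereas Cxcr2 favours their release.

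The IDs are ENSMUSG00000029380 (Cxcl1), ENSMUSG00000058427 (Cxcl2), ENSMUSG00000029379 (Cxcl3), ENSMUSG00000029371 (Cxcl5), ENSMUSG00000029372 (Ppbp), ENSMUSG00000029373 (Pf4), ENSMUSG00000034855 (Cxcl10), ENSMUSG00000018920 (Cxcl16), ENSMUSG00000026180 (Cxcr2) and ENSMUSG00000045382 (Cxcr4). By the RefSeq annotation of GRCm38, the build named in the submitters' processing notes, 7 members lie on chromosome 5. Within 146641 bases (chromosome 5, 90759298 to 90905938) the order is Cxcl5, Ppbp, Pf4, Cxcl3, Cxcl1 and Cxcl2. The gap from Pf4 to Cxcl3 is 12717 bases with no annotated gene in it, and Cxcl15 lies in the gap of 103151 bases from Cxcl3 to Cxcl1. Cxcl10 lies 1440699 bases beyond Cxcl2, at 92346638 to 92348889. Cxcr2 (74153994 to 74161246) and Cxcr4 (128588199 to 128592299) are on chromosome 1, and Cxcl16 (70454389 to 70459984) is on chromosome 11. All 2252 bases of Cxcl10 lie inside the annotated span of Art3, and Cxcl16 shares 552 bases with Zmynd15. These overlaps are of whole gene spans, introns included, and overlap of exons was not checked. The sources used here do not state whether counting used strand. Whether any reads in these stretches went to the wrong gene was not tested. Reads that match more than 1 family member are divided by estimation in Salmon, which the submitters' notes name, and how far this touched Cxcl1, Cxcl2 and Cxcl3 was not tested.

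Libraries held 30632355 to 38408851 counts. A number at the end of the title ties each viscous library to an elastic library of its genotype. In control cells the lower title number is called C1 here and the higher C2, and in Jak2 V617F cells they are J1 and J2. Nothing in the labels says what the number stands for or that libraries came from separate mice, so the spread behind the p-values may be technical. Both libraries numbered C1 stood apart from the others: on the first principal component of log2 CPM, with 41.5% of the variance, they scored 69.4 and 78.2, against −37.1 to −10.9 for the other 6. The files do not pair other gene IDs with names, so the monocyte label and the content of other cell types were not checked against markers. Levels are in CPM (counts per 1000000 after TMM scaling, not divided by transcript length) and are therefore compared between libraries and not between genes. The 10 members together held 0.634% and 0.780% of all counts in the C1 libraries and 0.979% to 1.46% in the other 6.

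In 6 chemokines (Cxcl1, Cxcl2, Cxcl3, Cxcl10, Ppbp and Pf4) the control numbers C1 and C2 differed at least 2-fold in both gels. The neutrophil-attracting Cxcl1 stood at 278.1 CPM in viscous and 231.8 CPM in elastic gel in the C1 libraries, and at 1540 and 2761 CPM in the C2 libraries. In Jak2 V617F cells Cxcl1 stood at 1427 (J1) and 1184 CPM (J2) in viscous gel and at 2277 (J1) and 2463 CPM (J2) in elastic gel. Both C1 libraries were thus low and the other 6 lay together, with the 4 Jak2 V617F libraries inside the range of the control libraries. Cxcl1 was 5.54-fold lower in C1 than in C2 in viscous gel and 11.9-fold lower in elastic gel. In bulk RNA, fewer cells of a type and less RNA per cell cannot be told apart here.

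Cxcl2 and Cxcl3, which share the Cxcr2 receptor with Cxcl1, were low in the same libraries. Cxcl2 stood at 779.8 and 813.2 CPM in C1 (viscous and elastic) and at 1931 and 3238 CPM in C2, and in Jak2 V617F cells at 2238 (J1) and 2284 CPM (J2) in viscous and 3492 (J1) and 3089 CPM (J2) in elastic gel. Cxcl3 stood at 1934 and 2449 CPM in C1 and at 5358 and 7222 CPM in C2, and in Jak2 V617F cells at 4519 (J1) and 5195 CPM (J2) in viscous and 5979 (J1) and 5586 CPM (J2) in elastic gel. In both genes the C1 libraries lay below all other 6. The share of all genes with such a separation of C1 was not counted. Cxcl2 was 2.48-fold and 3.98-fold lower in C1 than in C2, and Cxcl3 was 2.77-fold and 2.95-fold lower, in viscous and elastic gel.

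The platelet chemokines went the other way. Ppbp stood at 508.3 and 1113 CPM in the C1 libraries (viscous and elastic) and at 23.6 and 87.8 CPM in C2. The Jak2 V617F libraries held Ppbp at 115.3 (J1) and 45.4 CPM (J2) in viscous and at 91.0 (J1) and 63.4 CPM (J2) in elastic gel. Its C1 libraries lay above all other 6, and it was 21.5-fold and 12.7-fold higher there than in C2. Pf4 stood at 1600 and 2011 CPM in C1 and at 461.8 and 756.3 CPM in C2, and in Jak2 V617F cells at 859.9 (J1) and 618.7 CPM (J2) in viscous and 681.7 (J1) and 580.2 CPM (J2) in elastic gel. It was 3.46-fold and 2.66-fold higher in C1 than in C2. Whether platelets or megakaryocytes had a part in these levels was not tested, since no other gene of those cells could be named in the table.

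Cxcl5, which binds Cxcr2 as Cxcl1 does, was higher in C1 than in C2 in both gels, as were its neighbours on the chromosome, Ppbp and Pf4. It stood at 439.6 and 653.4 CPM in C1 (viscous and elastic) and at 138.0 and 418.0 CPM in C2, 3.18-fold and 1.56-fold higher in C1. In Jak2 V617F cells Cxcl5 stood at 248.1 (J1) and 296.9 CPM (J2) in viscous and at 493.3 (J1) and 228.5 CPM (J2) in elastic gel. Its C1 library was the highest of the 4 in each gel, but J1 in elastic gel exceeded C1 in viscous gel. Along the cluster, Cxcl5, Ppbp and Pf4, before the 12717-base gap, were thus higher in C1 than in C2 in both gels. Cxcl3, Cxcl1 and Cxcl2, after it, were lower in both gels. The sign did not change across the wider gap of 103151 bases from Cxcl3 to Cxcl1. These signs come from 1 pair of numbers, C1 and C2. In Jak2 V617F cells the difference of J1 from J2 had opposite signs in the 2 gels for Cxcl5, Cxcl3, Cxcl1 and Cxcl2, and was positive in both gels for Ppbp (log2 1.34 and 0.52) and Pf4 (0.47 and 0.23).

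The interferon-induced Cxcl10 was lowest in the same libraries as Cxcl1. It stood at 7.19 and 3.39 CPM in C1 (viscous and elastic) and at 55.5 and 43.3 CPM in C2, 7.67-fold and 12.6-fold lower in C1. The Jak2 V617F values were 33.3 (J1) and 33.1 CPM (J2) in viscous and 15.7 (J1) and 22.1 CPM (J2) in elastic gel. The lowest of these values rests on 105 counts, 3.43 CPM before scaling, with a 95% Wilson interval of 2.83 to 4.15 that covers counting error only. Counting error at this depth was small beside the difference between C1 and the others.

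**Figure D1:**
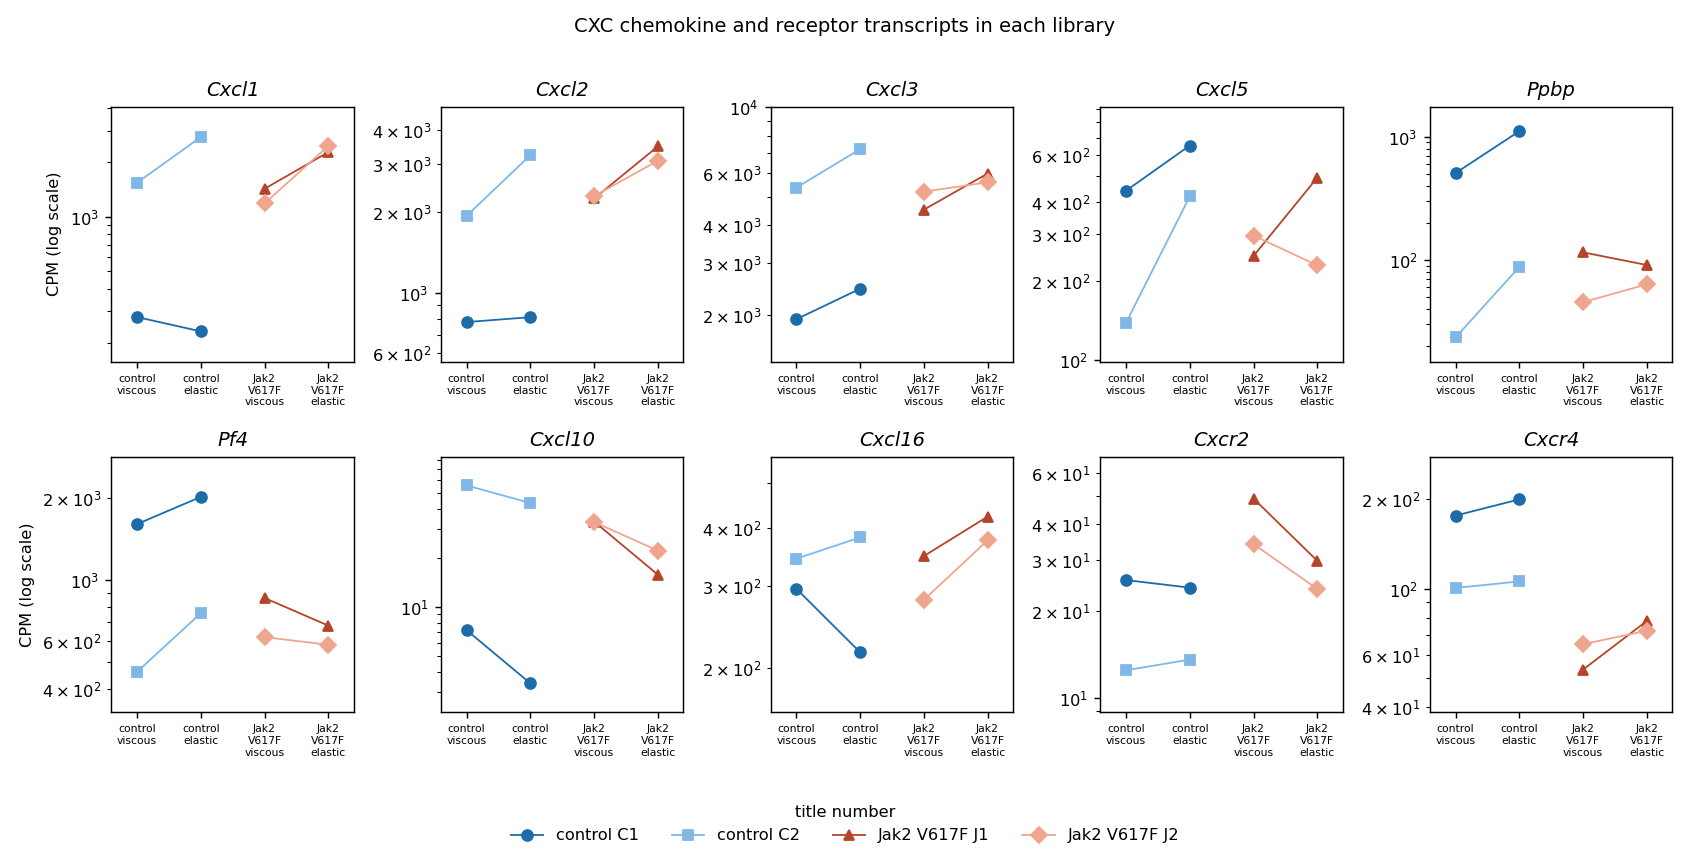
CPM on a log scale for each member gene (1 panel each) in the 4 groups; each point is 1 library, and lines join the viscous and elastic library of 1 title number. The C1 libraries lie below the other 6 for Cxcl1, Cxcl2, Cxcl3 and Cxcl10 and above them for Ppbp, Pf4 and Cxcr4. How many of all genes set C1 apart from the other 6 in this way was not counted. The C1 libraries also stood apart on the first principal component of all genes tested, so the pattern is not known to be particular to these members.

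Of the 10 members, 4 were at least 2-fold lower in C1 than in C2 in both gels (Cxcl1, Cxcl2, Cxcl3 and Cxcl10), against 3.37% of all 14785 genes. At least 2-fold higher in both gels were 2 members (Ppbp and Pf4), against 5.48% of all genes. Ranked by the mean difference over the gels, Ppbp stood at the 99.6 percentile of all genes in size, Cxcl10 at 99.2 and Cxcl1 at 98.8. No member differed 2-fold in both gels between the Jak2 V617F numbers, against 0.379% of genes higher and 0.311% lower in J1. These comparisons of 1 library with 1 library per gel carry no test. The number within a genotype (2 degrees of freedom) held 23.5% (Cxcr4) to 82.7% (Cxcl10) of the sum of squares of log2 CPM over the 8 libraries, with 31.8% as the median over all genes. The share exceeded that median in 9 of 10 members. The genotype (1 degree of freedom) held 3.41% (Cxcl5) to 70.9% (Cxcr4), with a median of 14.9% over all genes. After Cxcr4 the highest genotype shares were 51.5% in Cxcr2 and 35.3% in Cxcl2. The gel (1 degree of freedom) held 1.24% (Pf4) to 26.6% (Cxcl5), with a median of 8.06% over all genes.

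**Figure D2:**
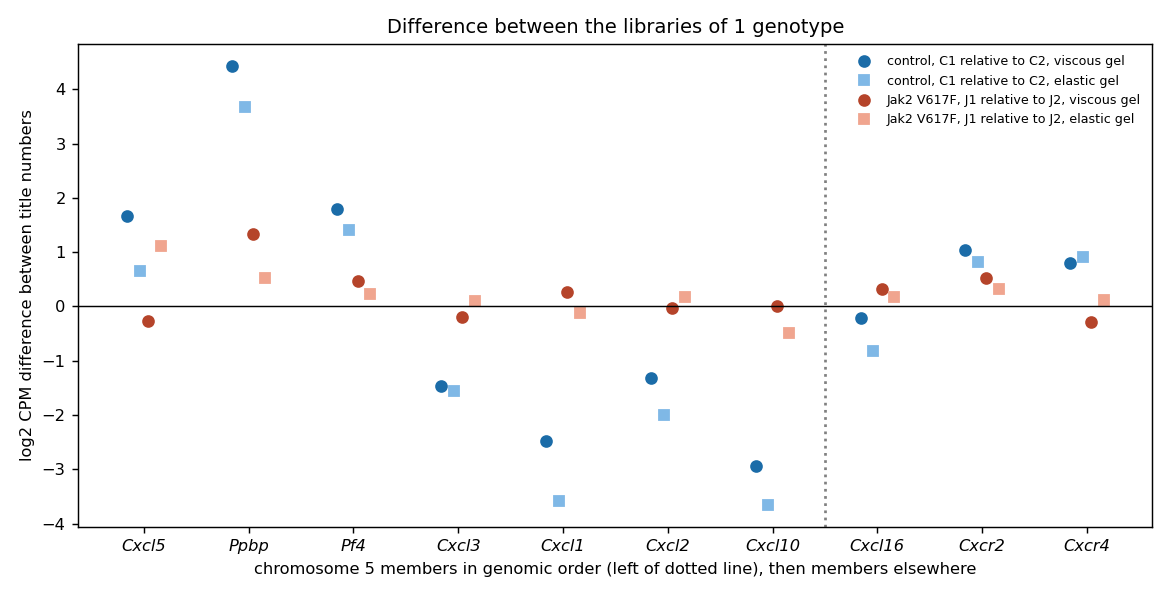
Log2 CPM difference between the title numbers of 1 genotype in each gel, with chromosome 5 members in genomic order and the others to the right of the dotted line. In control cells the difference is positive for Cxcl5, Ppbp and Pf4 and negative for Cxcl3, Cxcl1, Cxcl2 and Cxcl10.

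Levels of Ppbp and Pf4 resembled each other most (r = 0.989 for log2 CPM over 8 libraries, and 0.934 over the 6 without C1). Cxcl1 and Cxcl2 came next (0.981 and 0.847), and Cxcl3 was most like Cxcl1 (0.964 and 0.792). Cxcl5 was most like Ppbp (0.793 and 0.712). Cxcl10 was also most like Cxcl1 over 8 libraries (0.819), but without C1 the value was −0.332, so that likeness rested on the C1 libraries. The same held for Cxcr4, most like Pf4 (0.746 and −0.458). Cxcl16 was most like Cxcl1 (0.86 and 0.835), and Cxcr2 most like Ppbp (0.229 and 0.548). These values describe libraries that share depth, title number and gel and carry no test.

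Cxcr4 was the member whose genotypes did not overlap over the 8 libraries, although it did not pass the test. It stood at 176.4 and 200.1 CPM in C1 (viscous and elastic) and at 100.7 and 105.9 CPM in C2. In Jak2 V617F cells it stood at 53.5 (J1) and 65.1 CPM (J2) in viscous and at 78.0 (J1) and 72.2 CPM (J2) in elastic gel. All 4 Jak2 V617F libraries were lower than all 4 control libraries, which held for 1 of 10 members and for 3.39% of all genes. On counts summed per title number (2 sums against 2), Cxcr4 was 2.16-fold lower in Jak2 V617F cells (log2 fold change −1.11, SE 0.31, 95% interval −1.95 to −0.28). Its edgeR p was 0.0199, and 0.792 after Benjamini-Hochberg adjustment over 15239 genes. Without the C1 sum the log2 fold change was −0.63, and without the C2 sum, with C1 alone as control, it was −1.47. Its size thus depended on which control number was kept, while its sign did not. Within a gel, Cxcr4 was 2.34-fold lower in viscous (log2 −1.22, SE 0.37) and 2.04-fold lower in elastic gel (−1.03, SE 0.36), with edgeR adjusted p-values of 0.664 and 0.937. Without both C2 libraries these log2 values became −1.56 and −1.40 (viscous and elastic), and without both C1 libraries −0.76 and −0.50. Each of these fits has 1 control library per gel, so only the sizes are given here.

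Cxcr2, the receptor of the neutrophil-attracting ligands, was highest in Jak2 V617F cells in viscous gel. It stood at 48.9 (J1) and 34.0 CPM (J2) there and at 29.8 (J1) and 23.8 CPM (J2) in elastic gel. Control cells held 25.6 and 24.1 CPM in C1 (viscous and elastic) and 12.5 and 13.6 CPM in C2. For Cxcr2 the genotypes did not overlap in viscous gel and overlapped in elastic gel. Cxcr2 was 2.18-fold higher in Jak2 V617F cells in viscous gel (log2 1.12, SE 0.42, edgeR adjusted p = 0.664) and 1.42-fold higher in elastic gel (0.51, SE 0.41, edgeR adjusted p = 0.937). Without both C1 libraries these log2 fold changes were 1.73 and 0.98 (viscous and elastic), and without both C2 libraries 0.71 and 0.17. On summed counts it was 1.84-fold higher (log2 0.88, SE 0.36, 95% interval −0.10 to 1.86, edgeR adjusted p = 0.792). Its log2 fold change on summed counts was 1.41 without the C1 sum and 0.50 without the C2 sum. As for Cxcr4, fits without C1 or C2 have 1 control library per gel or 1 control sum, so only their sizes are given.

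Within viscous gel, both Jak2 V617F libraries lay above both control libraries for Cxcr2 and Cxcl2 (18.6% of all genes did so) and below them for Cxcr4 (19% of genes). Within elastic gel no member lay above without overlap (17.2% of genes) and Cxcr4 and Pf4 lay below (18.9% of genes). edgeR called 0 members in viscous gel (0% of genes), with Cxcr2 higher and Cxcr4 lower at an unadjusted p under 0.05 (3.61% and 3.71% of genes), and DESeq2 called 0 (0.237% of genes higher and 0.176% lower). In elastic gel edgeR called 0 members (0% of genes), with 0 higher and Cxcr4 lower at an unadjusted p under 0.05 (1.91% and 2.51% of genes), and DESeq2 called 0 (0.162% and 0.115% of genes).

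None of the 10 members passed the genotype test on summed counts at an edgeR adjusted p under 0.05, as was so for all 15239 genes (0% higher and 0% lower), and 1 member had an unadjusted p under 0.05 (Cxcr4, lower, against 2.75% of genes; 2.47% were higher). DESeq2 and limma-voom also called 0 members, while DESeq2 called 0.374% of genes higher and 0.322% lower. The chemokines Cxcl1, Cxcl2, Cxcl3 and Cxcl16 had positive log2 fold changes in Jak2 V617F cells (0.59, 0.70, 0.33 and 0.20), and Cxcl5, Ppbp, Pf4 and Cxcl10 had negative ones (−0.37, −2.40, −0.79 and −0.04). The interval for Ppbp ran from −5.82 to 1.03 and that for Cxcl10 from −2.74 to 2.65, so several-fold differences are not excluded in either direction for Cxcl10, nor towards lower levels in Jak2 V617F cells for Ppbp. For 6 members (Cxcl1, Cxcl3, Cxcl5, Ppbp, Pf4 and Cxcl10) all 4 Jak2 V617F libraries lay within the range of the 4 control libraries, as they did for 30.6% of all genes. Without the C1 sum the values of Cxcl1, Cxcl3 and Cxcl16 turned negative (−0.25, −0.25 and −0.03), that of Cxcl2 was 0.09, and those of Cxcl5, Ppbp and Pf4 positive (0.18, 0.51 and 0.18), with 0 calls among the members. Without the C2 sum, where C1 alone stood for control cells, edgeR called 7 members: Cxcl1, Cxcl2 (log2 1.81), Cxcl3 and Cxcl10 higher (against 7.98% of genes) and Ppbp, Pf4 and Cxcr4 lower (against 8.67%). That fit takes its spread from the Jak2 V617F sums only.

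**Figure D3:**
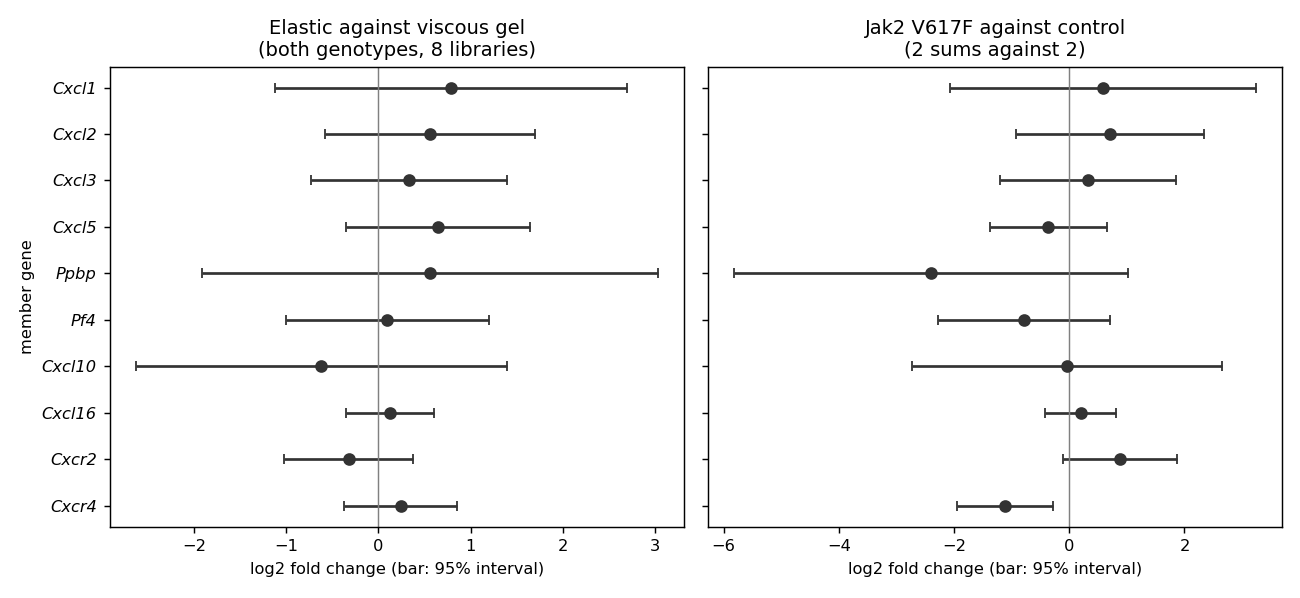
Log2 fold changes of each member with 95% intervals from edgeR, for elastic against viscous gel over both genotypes (left) and Jak2 V617F against control on summed counts (right). The interval includes 0 for each member on the left, and on the right for each except Cxcr4 (−1.95 to −0.28 before adjustment for the number of genes).

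Cxcl2, Cxcl3 and Cxcr4 were higher in elastic gel within each of the 4 title numbers, and Cxcl10 was lower within each. Without regard to the number, the gels overlapped for all 10 members, while 2.07% of all genes were higher and 1.66% lower in elastic gel without overlap. Over all genes, 10.7% were higher and 10.9% lower in all 4 numbers. For Cxcl2 the elastic library exceeded the viscous one by 0.06 (C1), 0.75 (C2), 0.64 (J1) and 0.44 (J2) on the log2 scale. For Cxcl3 the excess was 0.34, 0.43, 0.40 and 0.10, and for Cxcr4 it was 0.18, 0.07, 0.54 and 0.15, in the same order. For Cxcl10 the difference was −1.07, −0.36, −1.08 and −0.58. Cxcl1 was higher in elastic gel in C2 (0.84), J1 (0.67) and J2 (1.06) and lower in C1 (−0.26). Cxcl5 was higher in C1 (0.57), C2 (1.60) and J1 (0.99) and lower in J2 (−0.38).

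Over both genotypes none of the 10 members passed the edgeR test of the gel, with 0% of 14785 genes called in either direction; DESeq2 called 0 members, against 0.453% of genes higher and 0.453% lower. No member had an unadjusted edgeR p under 0.05, against 2.9% of genes higher and 3.38% lower. Averaged over genotypes, 8 members had a positive and 2 a negative log2 fold change for elastic gel, with a median of 0.29 against −0.0043 over all genes. The values were 0.79 (SE 0.79) for Cxcl1, 0.56 (SE 0.47) for Cxcl2, 0.33 (SE 0.44) for Cxcl3 and 0.65 (SE 0.42) for Cxcl5. Ppbp stood at 0.56 (SE 1.03), Pf4 at 0.10 (SE 0.46), Cxcl10 at −0.62 (SE 0.84), Cxcl16 at 0.13 (SE 0.20), Cxcr2 at −0.32 (SE 0.29) and Cxcr4 at 0.24 (SE 0.26). The smallest edgeR adjusted p was 0.914, for Cxcl5. These SEs come from a fit without the title number, so they include the difference between numbers. Without both C1 libraries the 10 signs were the same, with Cxcl1 at 0.85 (edgeR adjusted p = 0.174), Cxcl5 at 1.00 (0.365), Ppbp at 0.92 (0.479), Pf4 at 0.24 (0.687) and Cxcl16 at 0.25 (0.570), and 0 members were called.

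**Figure D4:**
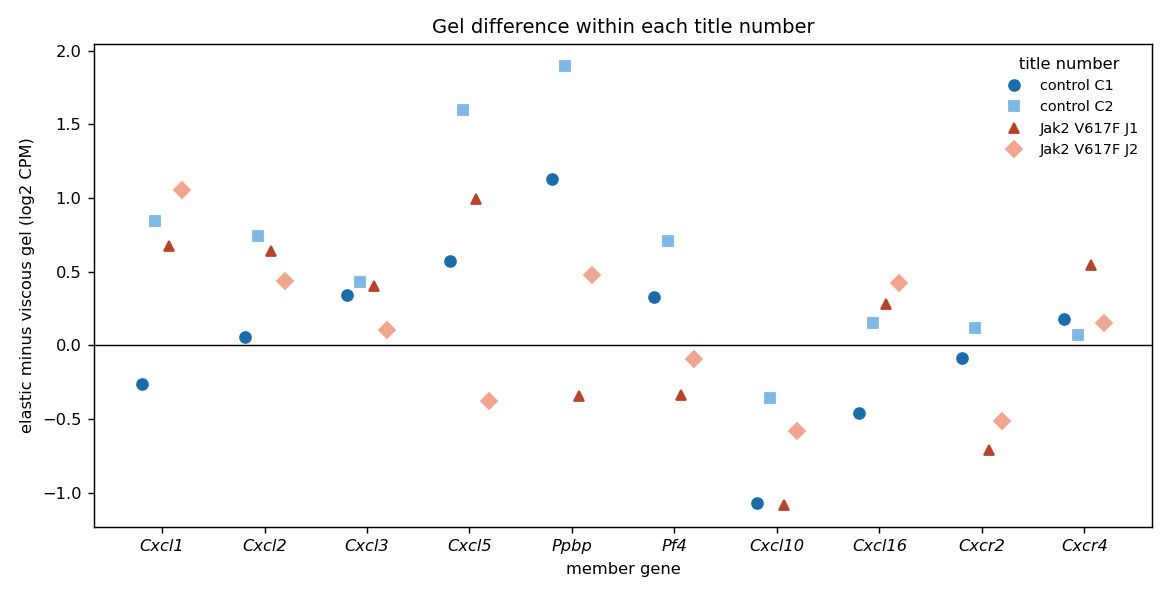
Elastic minus viscous difference in log2 CPM for each member within each of the 4 title numbers, 1 point per number. All 4 points are above 0 for Cxcl2, Cxcl3 and Cxcr4 and below 0 for Cxcl10.

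In Jak2 V617F cells alone, both elastic libraries exceeded both viscous ones for Cxcl1, Cxcl2, Cxcl3, Cxcl16 and Cxcr4 (5 of 10 members, against 19.1% of all genes). Cxcr2 and Cxcl10 were lower in both elastic libraries (2 of 10, against 20.6%). Cxcl16 stood at 347.9 (J1) and 280.0 CPM (J2) in viscous and 423.2 (J1) and 376.3 CPM (J2) in elastic gel. In control cells it stood at 295.9 and 215.9 CPM in C1 (viscous and elastic) and at 343.5 and 381.8 CPM in C2, so the direction differed between the numbers. In control cells the gels overlapped for all 10 members, while 13.1% of all genes were higher and 13.8% lower without overlap. edgeR called 0 members for the gel in control cells (0% of genes), with 0 at an unadjusted p under 0.05 (2.31% of genes higher and 2.54% lower), and DESeq2 called 0 (0.149% and 0.0676% of genes). For Jak2 V617F cells edgeR again called 0 members (0% of genes), with 0 at an unadjusted p under 0.05 (1.31% of genes higher and 1.77% lower), and DESeq2 called 0 (0.135% and 0.101% of genes).

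Whether the gel effect differed between the genotypes was tested as an interaction, which was positive in 3 and negative in 7 of the 10 members. For Ppbp the gel effect in Jak2 V617F cells less that in control cells came to −1.23 on the log2 scale (SE 2.07) with a 95% interval of −6.19 to 3.72. For Cxcr2 it came to −0.61 (SE 0.58) with a 95% interval of −2.01 to 0.78. Cxcl16 went the other way, at 0.45 (SE 0.40) with a 95% interval of −0.51 to 1.40. The edgeR adjusted p was 1.00 for each, and the intervals do not exclude differences of 2-fold or more. edgeR called 0 of the 10 members (0% of genes), and 0 had an unadjusted p under 0.05 (1.05% of genes higher and 0.67% lower). DESeq2 called 0 members (0% of genes higher and 0.0135% lower).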

How the data were processed

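The authors deposited unnormalized whole counts by Ensembl ID for 8 libraries. The submitters' processing notes name Salmon, DESeq2 and GRCm38 without versions, and the sources used here do not state how transcript estimates became gene counts or how these were filtered. Values of the library files and the series table were identical (8 of 8 files), and the smallest sum of an ID was 10. Gene symbols of the 10 members came with the choice of members. The RefSeq gene table (49997 genes) held an Ensembl ID for 0 genes, so the other CXC family, inducer and cell type marker lists were not analysed. Members and lists were chosen with earlier results of these data known. All 10 members are named.

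Counts were fitted with edgeR 4.0.16 (quasi-likelihood, R 4.3.3) on all 8 libraries with 4 group means, after filterByExpr (at least 99.96% of each library's counts kept) and TMM scaling. Genotypes were also compared on counts summed per title number. Tests were two-sided, with Benjamini-Hochberg adjustment over all genes and a threshold of 0.05. Log2 CPM used a prior count of 2. SE came from the test statistic. Alternatives were DESeq2 1.42.0 (Wald test, its size factors), limma-voom (limma 3.58.1), no filter, each library or title number left out, and the title number as a replicate block. The tests were checked on simulated counts that held no difference between title numbers, so that check does not cover the gap between C1 and C2. Figures were drawn with matplotlib 3.10.9.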

Additional observations from a re-analysis of the deposited data

Results flagged for a closer look

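The gel difference of Pf4, the platelet chemokine, had opposite signs in the genotypes. In control cells elastic exceeded viscous gel by 0.33 (C1) and 0.71 (C2) on the log2 scale, and in Jak2 V617F cells the difference was −0.34 (J1) and −0.09 (J2). The interaction was −0.65 on the log2 scale (SE 0.92, 95% interval −2.86 to 1.55) and did not pass the edgeR test (adjusted p = 1.00). The pattern rests on the signs of 2 numbers per genotype. How many of all genes show such a pattern was not counted, so it is not known to be unusual.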

How the results depend on the processing

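The count of 0 members called by edgeR held in 106 of 109 alternative counts, with DESeq2, limma-voom, other scaling and no filter among them. The exceptions were the genotype comparisons without title number C2: 5 members in viscous gel (4 higher and 1 lower, against 2.44% and 2.55% of genes), 7 in elastic gel (4 higher and 3 lower, against 3.48% and 4.32%) and 7 on summed counts, where leaving out each of the other 3 sums gave 0. A fit that leaves out C1 or C2 has 1 control library per gel, which is assumed to vary like the Jak2 V617F libraries. A fit without J1 or J2 has 1 Jak2 V617F library per gel, which is assumed to vary like the control libraries. Over all genes, libraries of the same number deviated together in control cells (correlation 0.53) and not in Jak2 V617F cells (−0.089). The main gel test did not use the number as a pairing, so its spread includes the difference between C1 and C2. In the members the number within a genotype held 23.5% (Cxcr4) to 82.7% (Cxcl10) of the sum of squares. With the title number as a replicate block edgeR called 0 members in each of the 4 gel comparisons. For the gel over both genotypes it called 5 genes in all, against 0 without the block. The members' edgeR adjusted p then ran from 0.180 (Cxcl10, log2 −0.76) to 0.807 (Cxcl16, 0.10), against 0.914 to 0.994 without the block. Cxcl1 stood at 0.58 and Ppbp at 0.79 with the block.

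Of 190 member log2 fold changes under the other alternatives, 2 reversed: Cxcl10 between genotypes on summed counts (0.72 with limma-voom) and Cxcl16 between gels (−0.056 without both C2 libraries). Cxcr4 between genotypes grew to −1.56 in viscous and −1.40 in elastic gel without both C2 libraries. The 190 cover all members for the gel over both genotypes and for the summed genotype comparison. For genotype within a gel they cover Cxcr2 and Cxcr4, and for the interaction Cxcr2 and Ppbp. With 1 library left out, the gel effect over both genotypes ranged from −0.56 to 1.65 for Cxcl1, −0.10 to 0.96 for Cxcl2, −0.16 to 0.79 for Cxcl3, −0.83 to 2.31 for Ppbp, −0.33 to 0.68 for Pf4, −2.01 to 0.45 for Cxcl10, −0.11 to 0.30 for Cxcl16 and −0.021 to 0.47 for Cxcr4. The reversals came without a control library in each of these genes, and for Pf4 also without J2 in viscous gel. With 1 sum left out, the genotype effect ranged from −0.25 to 2.83 for Cxcl1, 0.09 to 1.81 for Cxcl2, −0.25 to 1.31 for Cxcl3, −0.75 to 0.18 for Cxcl5, −3.29 to 0.51 for Ppbp, −1.35 to 0.18 for Pf4, −0.89 to 2.31 for Cxcl10 and −0.030 to 0.47 for Cxcl16. The interaction of Ppbp ranged from −4.73 to 1.53. The causes were not tested. Under DESeq2 size factors the median over all genes shifted by at most 0.0095 (log2).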
